A study of Caenorhabditis elegans with 4 samples.

Results

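The HOX genes of the nematode Caenorhabditis elegans were examined for peaks of a chromatin-binding protein, CFP-1, and of the histone mark H3K4me3. The 6 genes were taken by name, ceh-13, lin-39, mab-5, egl-5, php-3 and nob-1, and make up 6 of the 19971 protein-coding genes on the nuclear chromosomes in the gene table. All lie on chromosome III. The data are ChIP-seq peak lists from whole late embryos, aged for 3.5 hours after collection. Every sample came from strain JA1597, in which the dpy-30 promoter drives a cfp-1::gfp transgene inserted at a Mos site on chromosome IV. Whether the strain keeps an untagged cfp-1 gene is not stated in the labels. An anti-GFP serum (CFP-1::GFP) gave 2 lists, RC03 and RC04, and an anti-H3K4me3 antibody gave 2 lists with the same numbers. The names of the peaks contain an abbreviation for a larval stage, while the labels give late embryos, and the labels were followed. The CFP-1 lists held 9216 and 9256 peaks, and the H3K4me3 lists held 11357 and 12343. Read depth is unknown, the labels do not say whether both numbers stand for separate cultures, and anti-GFP peaks of animals without the transgene were not analysed here.

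HOX genes encode homeodomain transcription factors that give cells along the head-to-tail axis their regional identity. In the worm they form a dispersed cluster. ceh-13, related to labial of the fly, acts in the anterior, lin-39 in the mid-body, mab-5 in the posterior body, and egl-5, php-3 and nob-1, related to Abdominal-B of the fly, act in the tail region. CFP-1 is the CXXC zinc finger subunit of the COMPASS complex, which methylates histone H3 at lysine 4. The mammalian CFP1 protein binds unmethylated CpG dinucleotides. H3K4me3 is typically found at promoters of transcribed genes. Trithorax-group proteins, which include subunits of COMPASS-like complexes, are known as activators of HOX genes in flies and vertebrates.

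The genes lie in pairs. lin-39 and ceh-13 are separated by 19.0 kb without a protein-coding gene between them, mab-5 and egl-5 by 30.9 kb with 1 protein-coding gene, cyk-7, between them, and php-3 and nob-1 by 0.24 kb. The territory of a gene is used below for the gene and the space on both sides up to the next protein-coding gene. HOX territories were long, 30.8 kb for lin-39, 29.0 kb for egl-5, 25.5 kb for ceh-13, 24.2 kb for nob-1, 17.4 kb for mab-5 and 5.7 kb for php-3, against a median of 4.8 kb (quartiles 2.8 and 8.8 kb) over all protein-coding genes. Of all genes, 98.7% had a shorter territory than lin-39 and 58.0% a shorter one than php-3. Neighbouring members share the space between them, and the joint length of the 6 territories was 113.4 kb.

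CFP-1 was not called at the ends of any HOX gene. A region here is a merged interval with peaks in both lists of an antibody, and a gene was counted when a region came within 500 bp of either of its annotated ends. Both ends were used because the gene table gives no strand, so the transcript start is 1 of the 2 ends and could not be told from the other. By this count 0 of the 6 HOX genes had a CFP-1 region, while 26.4% of all protein-coding genes had one. Accepting peaks of a single list did not change this count (0 of 6 HOX genes, against 30.2% of all genes). H3K4me3 regions lay at 2 of the 6, ceh-13 and nob-1, against 30.9% of all genes, so the HOX share was near that of all genes. With peaks of a single list accepted, mab-5 was added (3 of 6, against 34.3%). Regions of both antibodies lay at 0 of 6 HOX genes and at 23.5% of all genes. The pattern of ceh-13 and nob-1, H3K4me3 without CFP-1 at the gene ends, was found in 7.44% of all genes. With 6 genes these counts describe the family and no test was run on them. In whole embryos a mark on few cells and a weak mark on many cells cannot be told apart.

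Each peak has a score in −log10 units from the authors' peak caller. The score depends on depth, so it is given as deposited and as a percentile rank within its own list, where 100 is the strongest peak. Where a gene had a peak at an end, the median of the highest rank over all such genes was 75.4 and 75.6 in the CFP-1 lists and 83.3 and 84.7 in the H3K4me3 lists. No HOX gene had a CFP-1 peak at an end, so only H3K4me3 ranks of ceh-13, mab-5 and nob-1 can be set against those medians. These ranks were below the H3K4me3 medians in both lists, as the plot of ranks shows.

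**Figure D1:**
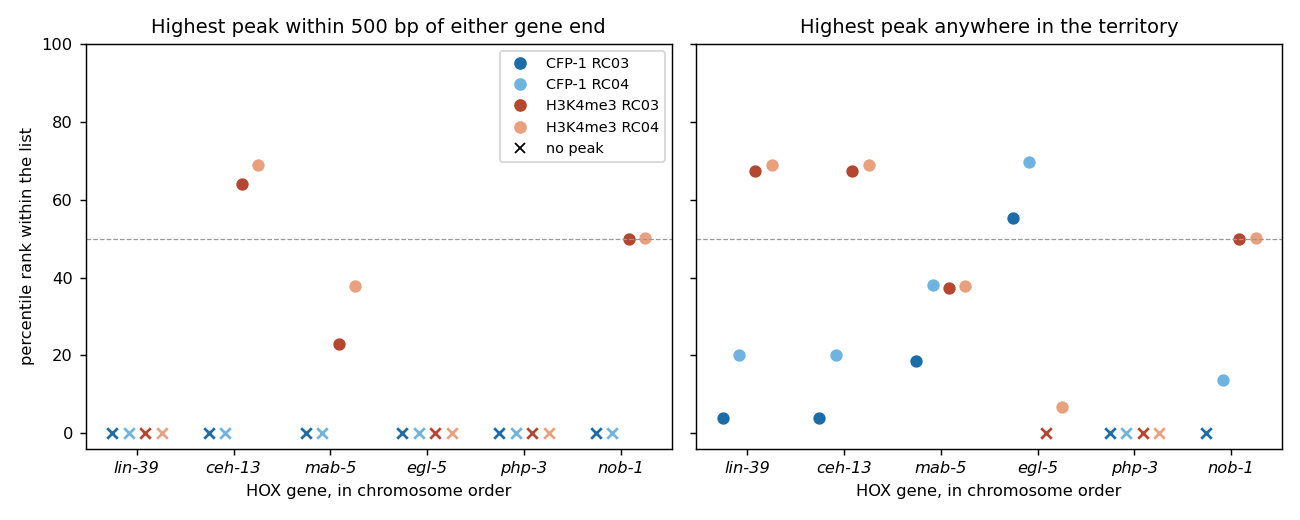
Highest percentile rank of a peak within 500 bp of either gene end (left) and anywhere in the territory (right) for each HOX gene, 1 point per list; crosses mark lists without a peak and the dashed line is rank 50. No CFP-1 point lies at a gene end, and the H3K4me3 points at gene ends run from 22.8 (mab-5, RC03) to 68.8 (ceh-13, RC04). The CFP-1 points of egl-5 on the right, 55.4 and 69.6, are peaks at the end of the neighbouring gene cyk-7. All points of lin-39 on the right are peaks outside lin-39. Its CFP-1 points lie beside ceh-13, and its H3K4me3 points at linc-57 (RC03) and at the lower end of ceh-13 (RC04). Inside lin-39 the highest H3K4me3 ranks were 39.6 (RC03) and 52.9 (RC04).

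At ceh-13, the anterior HOX gene, CFP-1 was called just outside both ends, beyond the 500 bp limit and with low scores. On the lower side (that of the smaller coordinate) a CFP-1 region lay at positions 7554638 to 7554993 on chromosome III (build ce10, as all positions here), about 0.67 kb from the end, with a score of 3.06 and a rank of 3.8 in RC03 and a score of 5.06 and a rank of 20.1 in RC04. This was the 1 CFP-1 region of the HOX territories that lay on H3K4me3 regions, sharing 248 bp with one and 10 bp with another. On the upper side a CFP-1 region at 7558664 to 7558928 lay about 0.62 kb from the end, scoring 3.06 in RC03 (rank 3.8) and 3.04 in RC04 (rank 4.7). Its RC03 peak shared 30 bp with an H3K4me3 peak of RC04, and no H3K4me3 peak of RC03 lay there. With a window of 1000 bp, ceh-13 was the 1 HOX gene of 6 with a CFP-1 region, against 32.2% of all genes, while H3K4me3 regions stayed at 2 of 6, against 35.8%.

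For H3K4me3, ceh-13 had the highest rank at its ends of all 6 genes in both lists. The region at its lower end spanned 733 bp, at 7555386 to 7556118. The peaks behind it were 639 bp wide with a score of 9.83 and a rank of 59.5 in RC03, and 733 bp wide with a score of 14.3 and a rank of 68.8 in RC04. A region of 545 bp at 7554746 to 7555290, the one that shared 248 bp with CFP-1, lay 0.37 kb outside this end, scoring 12.6 in RC03 and 8.37 in RC04. A further region of 314 bp at 7554334 to 7554647 lay 1.0 kb outside it, and one of 409 bp at 7556368 to 7556776 lay inside the gene. The mark at ceh-13 was thus called as a row of separate intervals on both sides of the lower end in both lists. The upper end had no H3K4me3 peak within 500 bp in either list.

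lin-39, which acts in the mid-body and in vulval precursor cells, had no peak of either antibody within 500 bp of an end. No CFP-1 peak lay inside it, and the nearest CFP-1 region lay 7.6 kb away, beyond the next gene, lig-4, a DNA ligase gene. The nearest H3K4me3 peaks to its upper end lay about 2 kb inside the gene, with a score of 5.21 and a rank of 39.6 in RC03 and a score of 7.18 and a rank of 52.9 in RC04, and formed a region of 346 bp at 7534313 to 7534658. Further peaks inside lin-39 differed between the lists. RC03 had 2, at 7533659 to 7533772 and 7534091 to 7534200, and RC04 had 3 between 7532612 and 7533144, none of them overlapping a peak of the other list.

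The widest H3K4me3 interval of all HOX territories lay between lin-39 and ceh-13, away from both. It spanned 1488 bp at 7543954 to 7545441 and overlapped the non-coding gene linc-57 and the microRNA gene mir-231. CFP-1 was called on it in RC04 only, as a peak of 135 bp with a score of 3.04 and a rank of 4.7. H3K4me3 had 2 peaks there in RC03, 410 bp wide with a score of 5.21 and 997 bp wide with a score of 15.3, and 1 peak of 1372 bp with a score of 12.9 in RC04. The mean rank of the region was 67.1, which exceeded the 64.1 at the lower end of ceh-13 by less than the difference between the lists there. In the same space 2 narrower H3K4me3 regions recurred in both lists, at 7546381 to 7546560 and 7549369 to 7549677, with mean ranks of 18.4 and 20.1.

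**Figure D2:**
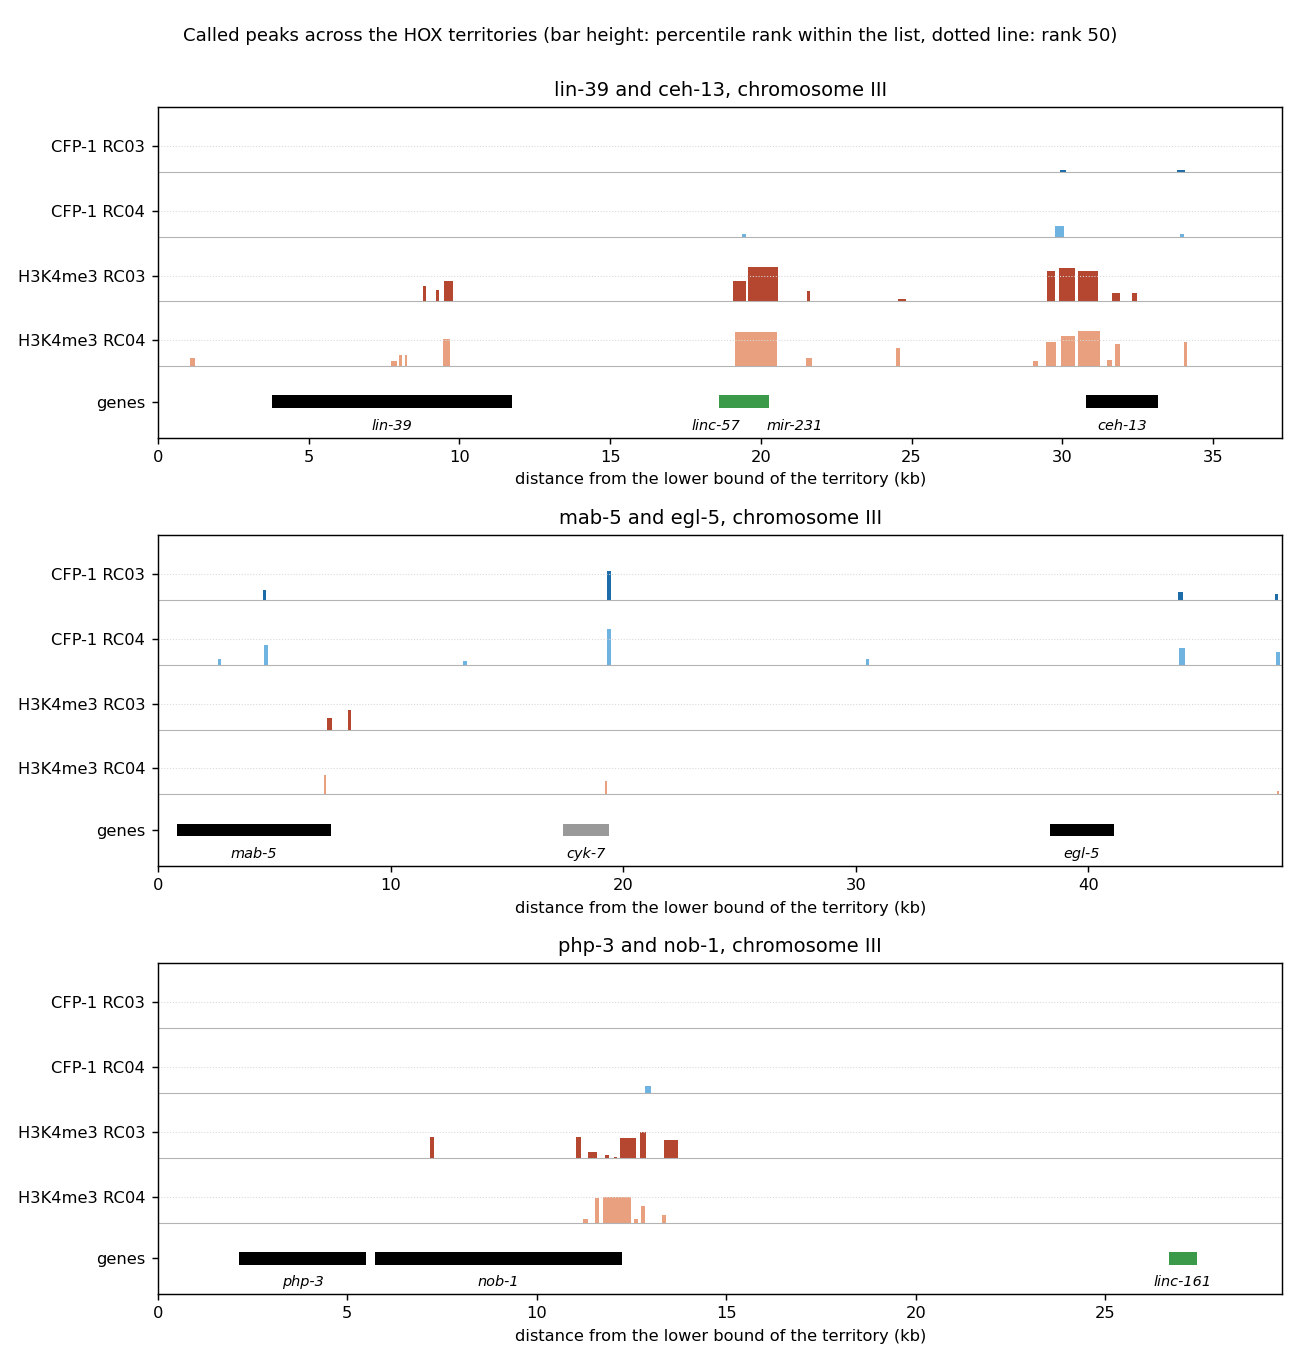
Peaks of the 4 lists across the 3 HOX pairs, drawn to scale against the distance in kb from the lower bound of the territory; bar height is the percentile rank within the list, the dotted line is rank 50, black boxes are HOX genes, grey boxes other protein-coding genes and green boxes the non-coding genes named there, others not being drawn (gene positions from assembly WBcel235, peaks in ce10, which may differ by up to about 100 bp). CFP-1 bars are few and mostly low, while H3K4me3 peaks group at the lower end of ceh-13, at linc-57, inside lin-39 and at the upper end of nob-1.

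mab-5, known for directing the posterior migration of neuroblasts, held the 1 CFP-1 region found within a HOX gene. It was 197 bp wide at 7780563 to 7780759, about 2.7 kb from the upper end. Its score was 5.04 in RC03 and 8.11 in RC04, its ranks were 18.5 and 38.1, and no H3K4me3 peak of either list overlapped it. RC04 had 2 further CFP-1 peaks in the territory, at 7778617 to 7778744 inside the gene and at 7789157 to 7789302 outside it, with scores of 3.84 and 3.43, and RC03 had neither. H3K4me3 was called at the upper end of mab-5 in both lists, but the peaks did not overlap each other. The RC03 peak was 242 bp wide at 7783288 to 7783529, with a score of 3.74 and a rank of 22.8, and the RC04 peak was 97 bp wide at 7783172 to 7783268, with a score of 4.99 and a rank of 37.8. Counted as peaks of both lists within 500 bp, overlapping or not, mab-5 joined ceh-13 and nob-1 for 3 of 6 HOX genes, against 30.6% of all genes. RC03 had a further H3K4me3 peak of 127 bp about 0.75 kb beyond that end, with a score of 4.99.

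egl-5, a tail-region gene, had CFP-1 peaks in its territory and nearly no H3K4me3. A CFP-1 region of 261 bp at 7819908 to 7820168 lay about 2.8 kb beyond its upper end, scoring 4.65 in RC03 and 7.07 in RC04, with ranks of 16.1 and 32.7. No H3K4me3 peak lay on it, and it overlapped the annotated non-coding RNA genes C27D11.2 and C27D11.3. The 2 other CFP-1 regions of this territory lay at the neighbouring genes. One, at 7795342 to 7795530, met the end of cyk-7 and had scores of 14.6 and 28.1 and ranks of 55.4 and 69.6, the highest CFP-1 ranks of all HOX territories. The other, at 7824070 to 7824267, lay 0.11 kb from the end of egl-45, a translation initiation factor gene, with scores of 4.21 and 5.61. Where the territory of egl-5 was bounded by all annotated genes, including non-coding ones, these 2 regions fell outside it. RC04 alone had a further CFP-1 peak at 7806462 to 7806597, with a score of 3.84. The H3K4me3 lists had no peak in RC03 and 1 peak in RC04 in the territory of egl-5, 87 bp wide with a score of 2.64, next to egl-45. That H3K4me3 peak lay within the CFP-1 region there. At cyk-7 an H3K4me3 peak of RC04, outside the territory, shared 18 bp with the CFP-1 peak of RC03 and 19 bp with that of RC04.

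php-3 and nob-1, the paired posterior genes, differed from each other. php-3 had no peak of any of the 4 lists in its territory. In each list taken alone, 56.2% to 56.6% of all genes had no covered base in their territory. The share of genes without a peak in all 4 lists together was not counted. The nearest CFP-1 region lay 13.9 kb from php-3 and the nearest H3K4me3 region 5.7 kb, whereas the medians over all genes were 3.4 and 3.1 kb. nob-1, required for normal formation of the posterior embryo, had a CFP-1 peak in RC04 only, 0.61 kb beyond its upper end at 12084924 to 12085074. That peak had a score of 4.26 and a rank of 13.8 and shared 30 bp with an H3K4me3 peak of RC03. H3K4me3 gave 8 peaks in the territory of nob-1 in RC03 and 6 in RC04. The upper end of the gene lay in a region of 912 bp at 12083817 to 12084728, with highest scores of 4.99 in RC03 and 6.61 in RC04. Beside it lay regions of 424 bp at 12083286 to 12083709, of 156 bp at 12084798 to 12084953 and of 424 bp at 12085378 to 12085801. The mean ranks of these 4 regions ran from 24.9 to 43.6, below rank 50 in each case and below the ranks at the lower end of ceh-13.

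Over the joint territories the CFP-1 lists had 6 peaks in RC03 and 11 in RC04, and the H3K4me3 lists had 22 and 23. Most were weak. At or below the median score of their list were 5 of 6 and 10 of 11 CFP-1 peaks, and 18 of 22 and 19 of 23 H3K4me3 peaks. The highest CFP-1 scores were 14.6 in RC03 and 28.1 in RC04, both at cyk-7, and the highest H3K4me3 scores were 15.3 and 14.3, at linc-57 in RC03 and at ceh-13 in RC04. Peaks were also narrow, with median widths of 192 and 151 bp for CFP-1 and 239 and 145 bp for H3K4me3, against 275 and 274 bp and 298 and 264 bp over the whole lists. All 6 CFP-1 peaks of RC03 recurred in RC04, and 6 of the 11 in RC04 (54.5%) recurred in RC03, against 84.0% and 85.1% of all peaks of those lists. For H3K4me3, 15 of 22 RC03 peaks and 15 of 23 RC04 peaks recurred, which is 68.2% and 65.2%, against 81.7% and 77.9% of all peaks of those lists.

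**Figure D3:**
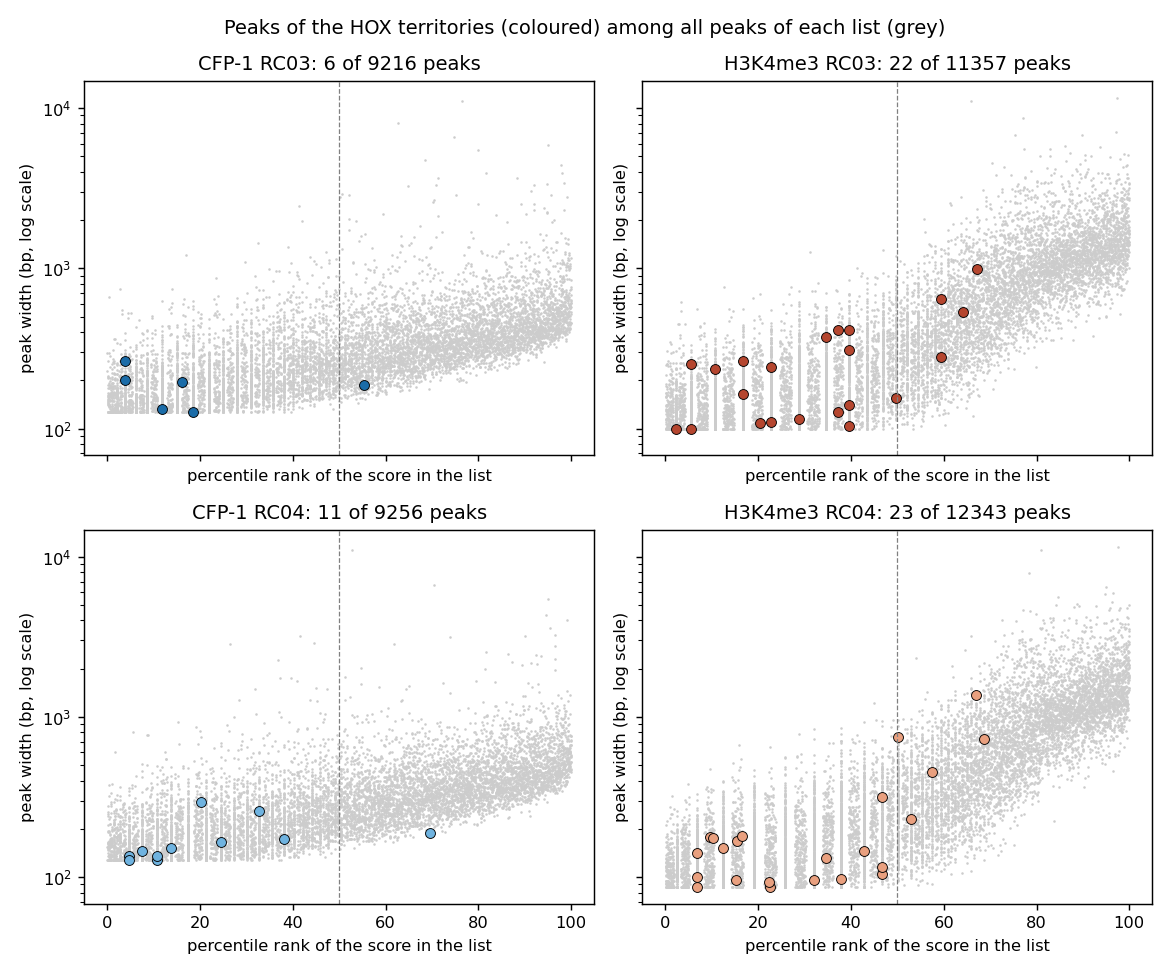
Width in bp (log axis) against percentile rank of the score for every peak of a list (grey) and for the peaks in the HOX territories (coloured), 1 panel per list; the dashed line is rank 50. The HOX peaks stay below rank 70 in all 4 lists, and H3K4me3 peaks of 1000 bp or more, common at high ranks, are represented in the territories by the RC04 peak of 1372 bp.

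In covered bases the antibodies stood apart. CFP-1 peaks covered 0.92% and 1.62% of the joint HOX territories in RC03 and RC04, and H3K4me3 peaks covered 5.44% and 5.30%. The means were 1.27% ± 0.50 for CFP-1 and 5.37% ± 0.10 for H3K4me3 (SD, n = 2 each), a difference of -4.10 percentage points that exceeded the spread between the lists. The exact permutation test (two-sided) over 2 against 2 lists gave p = 0.33, the smallest this design allows. Set against the whole nuclear genome, the HOX territories had 0.29 and 0.53 times the genome coverage of CFP-1 (3.12% and 3.04%), and 0.83 and 0.80 times the genome coverage of H3K4me3 (6.55% and 6.63%). Over the whole genome CFP-1 also covered less than H3K4me3 in both lists, so that direction was not particular to the HOX territories. CFP-1 coverage differed between its lists in the HOX territories by more than it did genome-wide.

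Members differed in which antibody covered more. In the territory of ceh-13, CFP-1 covered 1.82% and 2.18% and H3K4me3 14.3% and 14.7%. In that of lin-39, CFP-1 covered 0.65% and 1.39% and H3K4me3 11.0% and 11.9%. The space between lin-39 and ceh-13 belongs to both territories. All CFP-1 peaks of the lin-39 territory lay in it. So did the H3K4me3 peaks at linc-57 and those beside the lower end of ceh-13, and these bases were counted for both genes. In that of nob-1, CFP-1 covered 0% and 0.62% and H3K4me3 6.69% and 5.37%. In these 3 territories, those of ceh-13 and lin-39 being in part the same bases, CFP-1 covered less than H3K4me3 in both lists. The territory of egl-5 had the opposite order, with CFP-1 on 1.55% and 2.35% and H3K4me3 on 0% and 0.30%. Its CFP-1 bases include those of the peaks at the ends of the neighbouring genes cyk-7 and egl-45. mab-5 had overlapping values, with CFP-1 on 0.72% and 2.57% and H3K4me3 on 2.12% and 0.56%. Among the 1025 genes with a territory of 20 kb or more, a length chosen after the HOX values had been seen, the CFP-1 lists had a median coverage of 1.83% and 1.87%, and the H3K4me3 lists one of 2.30% and 2.26%. Of these 1025 genes, 20.2% had a CFP-1 region and 26.6% an H3K4me3 region within 500 bp of an end. The territories of mab-5 and php-3 are shorter than 20 kb.

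**Figure D4:**
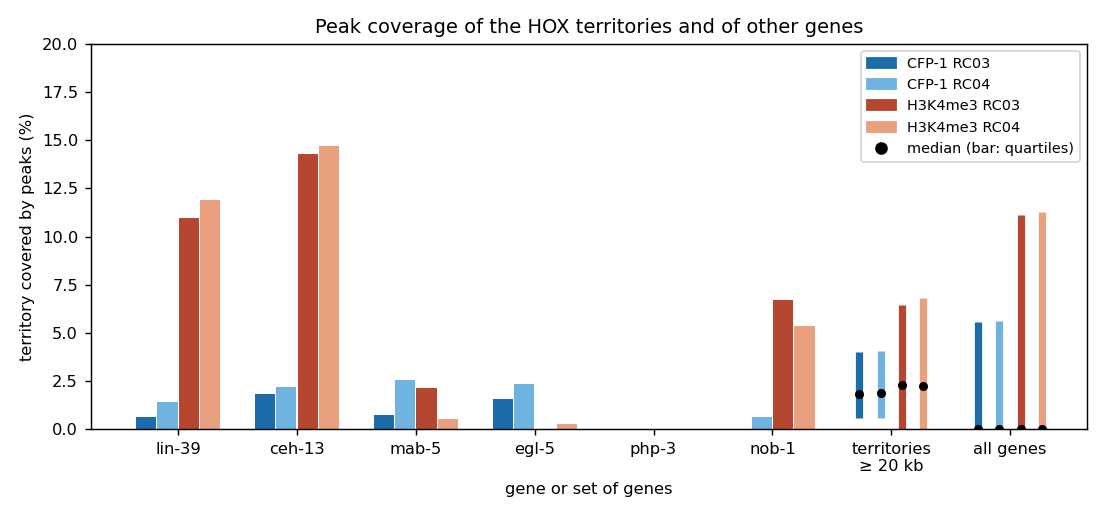
Percent of each HOX territory covered by peaks, 1 bar per list, beside the median (black point) and quartiles (coloured bar) over the genes with territories of 20 kb or more and over all protein-coding genes. All CFP-1 bars are at or below 2.57%, H3K4me3 reaches 14.7% at ceh-13, and php-3 is at 0 in all 4 lists.

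How often the antibodies overlapped in the HOX territories depended on which lists had to hold a peak. The territories held 6 CFP-1 regions of both lists, of which 1, beside ceh-13, overlapped an H3K4me3 region of both lists, whereas 71.6% of the 7577 CFP-1 regions of the whole series did. Without H3K4me3 RC03 the count was 4 of 6, against 73.5% in the whole series, and without CFP-1 RC03 it was 3 of 11, against 65.4%. Without CFP-1 RC04 or without H3K4me3 RC04 it stayed at 1 of 6. With peaks of either list it was 6 of 11, against 67.3%. From the other side, 2 of their 12 H3K4me3 regions lay on that CFP-1 region, against 62.3% of all 8050 that met one. A CFP-1 region was found in the territory of 4 of 6 HOX genes (ceh-13, lin-39, mab-5 and egl-5), against 40.8% of all genes and 73.7% of genes with territories of 20 kb or more. For lin-39 this was only the region beside ceh-13, which was counted for both genes. An H3K4me3 region was found in 3 of 6 (ceh-13, lin-39 and nob-1), against 41.0% and 67.5%. A CFP-1 region on an H3K4me3 region was found in the territory of ceh-13 and lin-39, the same interval counted for both, against 33.3% of all genes and 52.5% of those with long territories. The territories of mab-5 (17.4 kb) and php-3 (5.7 kb) are shorter than 20 kb, so the shares for long territories compare with the other members only. Of those members, ceh-13, lin-39 and egl-5 had a CFP-1 region, and ceh-13, lin-39 and nob-1 an H3K4me3 region. Counting peaks of single lists, 4 of 6 CFP-1 peaks in RC03 and 5 of 11 in RC04 touched an H3K4me3 peak of some list, against 70.5% and 70.4% of all peaks of those lists.

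Of the 7 protein-coding neighbours outside the family, lig-4 ranked above the medians of genes with a peak for both antibodies. lig-4, below lin-39, had a CFP-1 region within 500 bp of an end, with ranks of 97.1 and 92.8, and an H3K4me3 region with ranks of 94.1 and 97.5. egl-45, above egl-5, had CFP-1 ranks of 66.1 and 70.5, below those medians, and H3K4me3 ranks of 93.1 and 92.2, above them. bath-15, a BATH domain gene 0.80 kb below mab-5, had CFP-1 ranks of 53.6 and 53.5 and H3K4me3 ranks of 72.6 and 73.2, with both regions at its far end. cyk-7 had CFP-1 ranks of 55.4 and 69.6, and for H3K4me3 no peak in RC03 and a rank of 25.8 in RC04. All ranks of bath-15 and cyk-7 were below those medians. The other 3 neighbours outside the family, lgc-12, zyg-8 and cest-12, had no peak at their ends in any list. The nearest CFP-1 region with a mean rank above 50 lay 2.2 kb from mab-5, 7.6 kb from lin-39, 11.8 kb from egl-5, 12.1 kb from ceh-13, 13.9 kb from php-3 and 17.5 kb from nob-1, against a median of 5.9 kb over all genes.

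Related genes were counted in the same way, to be read against the 26.4% of all genes with a CFP-1 region, the 30.9% with an H3K4me3 region and the 23.5% with both. The Polycomb-type and other HOX repressors had a CFP-1 region at 7 of 8 genes, an H3K4me3 region at 7 of 8 and both at 6 of 8. The median rank of the list was 65.8 for CFP-1 and 84.5 for H3K4me3. Over genes with a peak at an end, the medians were 75.4 and 75.6 in the CFP-1 lists and 83.3 and 84.7 in the H3K4me3 lists. Over all genes the median was 0, since most genes have no peak at their ends. mes-2, the Enhancer of zeste homologue, had CFP-1 ranks of 92.9 and 94.8 and H3K4me3 ranks of 92.6 and 92.7. sor-1 had CFP-1 ranks of 91.0 and 86.1 and H3K4me3 ranks of 89.8 and 90.2. These were the highest CFP-1 ranks of the list. mes-6, sor-3 and spat-3 had CFP-1 ranks from 62.1 to 78.5. sop-2 and egl-27 had a CFP-1 peak within 500 bp in RC03 only, with ranks of 75.4 and 42.4. mes-3 had CFP-1 ranks of 23.5 and 34.4 and no H3K4me3 region. Of the cofactors, 2 of 4 had both. ceh-20, the Pbx-type partner of HOX proteins, had CFP-1 ranks of 92.1 and 91.5 and H3K4me3 ranks of 90.4 and 93.0, while unc-62, the Meis-type partner, had no CFP-1 peak and an H3K4me3 peak in RC04 only. The other cofactor with both, ceh-40, had CFP-1 ranks of 35.8 and 19.7 and H3K4me3 ranks of 72.9 and 70.2. ceh-60 had no peak at its ends in any list. Among the upstream regulators 1 of 6 had a CFP-1 region and 2 of 6 an H3K4me3 region, near the shares of all genes. pop-1, the TCF factor of Wnt signalling, had both, and pal-1, the caudal homologue, and the Wnt gene egl-20 had no peak at their ends in any list.

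Among the described HOX targets a CFP-1 region lay at 0 of 7, against 26.4% of all genes, and an H3K4me3 region at 3 of 7, against 30.9%. The 3 were egl-18, egl-17 and mig-13, a GATA factor, a fibroblast growth factor and a transmembrane protein of neuroblast migration. egl-18 had a CFP-1 peak in RC03 only, with a rank of 18.5, and H3K4me3 ranks of 65.5 and 67.0. mig-13 had no CFP-1 peak and H3K4me3 ranks of 68.4 and 70.2. The 63 other genes named ceh, most of them homeobox genes outside the HOX family, had a CFP-1 region at 16 (25.4%), an H3K4me3 region at 20 (31.7%) and both at 14 (22.2%), near the shares of all genes. The cofactors ceh-20, ceh-40 and ceh-60 are counted among these as well. Median ranks were 0 for both antibodies over these 63 genes, and 0 for CFP-1 and 15.1 for H3K4me3 over the 6 HOX genes. No HOX gene had a rank of 15.1. It is the midpoint between 0, for the members without a peak, and the mean rank of mab-5, whose RC03 and RC04 peaks did not overlap. No difference between the lists of genes was tested.

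**Figure D5:**
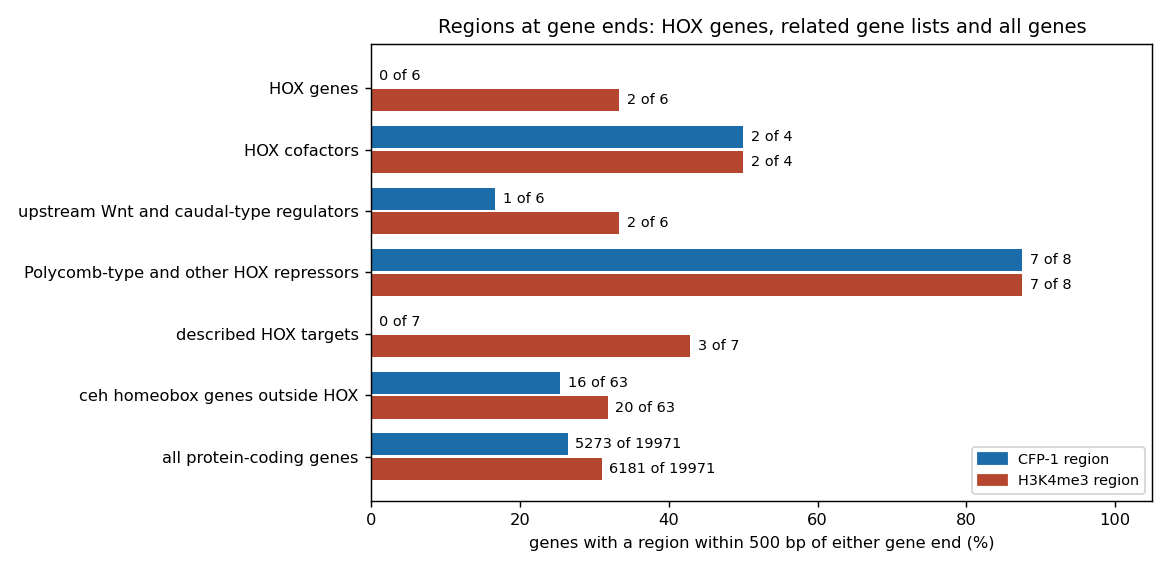
Percent of genes with a CFP-1 or an H3K4me3 region within 500 bp of either gene end, for the HOX genes, 4 lists of related genes, the other ceh genes and all protein-coding genes, with the counts beside the bars. The HOX genes (0 of 6) and the described HOX targets (0 of 7) have no CFP-1 bar, and the repressors have 7 of 8 for each antibody. The cofactors ceh-20, ceh-40 and ceh-60 are also counted among the other ceh genes.

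Genes with the most similar ranks over the 4 lists were found by Euclidean distance in percentile points. ceh-13 was nearest to fbxb-40 (0.32 points) and lin-8 (0.60 points), both without CFP-1 peaks. mab-5 had the same 4 ranks as D1025.10 and sdpn-1. nob-1 had the same 4 ranks as F53B6.13, and fbxb-60 came next at 2.37 points. Peaks with equal scores share a rank. A score of 5.21 with a rank of 39.6, for example, recurred among the RC03 H3K4me3 peaks of the HOX territories. Equal ranks therefore reflect tied scores and give no closer likeness. lin-39, egl-5 and php-3, with no peak at their ends, had no such ranking.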

How the data were processed

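Chromatin of formaldehyde-fixed late embryos was immunoprecipitated and sequenced, per the labels' protocols. Reads were aligned with BWA to ce10 and peaks called with MACS2 2.0.10, per the submitters' processing notes. Settings, controls and thresholds are not stated there. The authors deposited 1 peak list per sample, not pooled, with a score on the −log10 scale of the caller's p or q; the labels do not say which. The lowest scores were 1.30 to 1.41. Reads per sample are unknown, and with them the precision that depth would give.

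Gene ends came from the RefSeq table of assembly WBcel235, whose chromosome lengths differ from ce10 by about 100 bp at most. The table gives no strand, so the planned count at transcript starts was made at both gene ends. Distances carry this uncertainty. On chromosome III, 18.4% of 2642 genes had an end inside a CFP-1 region, 19.5% and 17.1% after ends were moved by -100 and 100 bp, and 8.44% and 8.02% after -1000 and 1000 bp. No sequences were used here.

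Peaks of both lists of an antibody that shared at least 1 bp formed regions. Overlap and coverage were counted in Python 3.11.15 with numpy 2.4.6 and pandas 2.3.3. The coverage difference was tested by exact permutation over the 4 lists (scipy 1.17.1). The code was tested on simulated data, where 200 of 200 genes with planted peaks on chromosome III were recovered. Named genes were the 6 members, their nearest protein-coding neighbours, 4 lists of related genes, other ceh genes and, for each member with a peak at an end, the 2 genes most alike in rank over the 4 lists. The members and lists were chosen with earlier results of these data known. Alternatives were windows of 250 and 1000 bp, ends moved by 100 bp, peaks above the median score, calls in either list, leaving out each list, other territory bounds and a stricter overlap.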

Additional observations from a re-analysis of the deposited data

How the results depend on the processing

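Of 74 values under alternative settings, 57 were unchanged, 17 moved and 0 reversed. Unchanged means a count within 1.5 times or a rank within the spread between lists. For the coverage difference between CFP-1 and H3K4me3 it means the same direction. Counts and ranks carry no sign, so only the coverage difference could have reversed. Counts of 0 that stayed at 0 were among the unchanged values. With a window of 1000 bp, 1 HOX gene had a CFP-1 region and 1 had regions of both antibodies (ceh-13 in both counts). With peaks above their list's median score, 1 HOX gene had an H3K4me3 region at an end, the median H3K4me3 rank was 0, and the territories held 1 CFP-1 region, 3 H3K4me3 regions and 0 overlaps, and the coverage difference was -2.20 points, against -4.10 with all peaks. Such peaks are fewer by construction. With peaks of either list the territories held 11 CFP-1 and 27 H3K4me3 regions and 6 CFP-1 regions on H3K4me3. Leaving out 1 list gave 6 to 11 CFP-1 regions (11 without CFP-1 RC03), 22 to 23 H3K4me3 regions (22 without RC04, 23 without RC03) and 1 to 4 overlaps (3 without CFP-1 RC03, 4 without H3K4me3 RC03), since a single list needs no second call. In settings added after the data were seen, the lower gene ends alone and the upper gene ends alone each gave 1 HOX gene with an H3K4me3 region. With the number as a replicate block, same-numbered lists gave 0 HOX genes with both antibodies and a coverage difference of -4.10 points (exact sign flips, p = 0.5, the smallest that 2 pairs allow); the rank differences between RC03 and RC04 of one antibody and the other were related with Spearman rho -0.04 over 5427 regions, and the labels do not say what the numbers share. Read depth is unknown, so a missing peak is not evidence that binding or mark is absent.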
